A study of Mus musculus with 10 samples.

Results

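The 2 libraries labelled P3, from crypt cells gated as low in OSCAR signal and high in EF1a signal, were compared with the 2 libraries labelled P1, gated as low in both. These 4 libraries were chosen by sample title out of 10 in the series. All 10 came from live, EpCAM-positive cells of small intestinal crypts of C57BL6/J mice. Every mouse carried the same reporter, mCherry joined by a P2A peptide to VeN90, knocked into the Rosa26 locus behind an EF1a promoter. Germline Vasa-Cre had removed a loxP-flanked stop cassette, so the reporter was not restricted to a cell type and the cells labelled P1 carried it too. The ages of the animals were not given in the sources used here, and the labels do not tie a replicate to an animal, so p-values measure the spread between these samples. The other 6 libraries were P2 (OSCAR high, EF1a low), P4 (OSCAR medium, EF1a low) and P5 (OSCAR medium, EF1a high), with 2 replicates each, and 10000 cells were sorted per population. They entered the filter on low counts, the scaling and the estimate of spread. By their labels, P4 and P5 also gave the same EF1a comparison at medium OSCAR.

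VeN90 is a Venus fluorophore that carries a substrate peptide of CDK9, the kinase of P-TEFb that releases paused RNA polymerase II. Phosphorylation of the peptide lowers its fluorescence, so the ratio of VeN90 to mCherry reads kinase activity, and the overall brightness reads the output of the EF1a promoter. This promoter comes from the gene of elongation factor 1 alpha, which brings aminoacyl-tRNA to the ribosome. The crypt itself holds dividing stem and progenitor cells, Paneth cells and differentiating cells that move up to the villus. Going by the labels, the comparison therefore asked how transcripts differed between bright and dim cells that shared a low OSCAR gate.

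The gates could not be checked against the transcript of the reporter, which is not a row of the gene tables. The populations are numbered one way in the sample titles and another way in the names of the deposited tables. Markers of Paneth cells, the secretory cells of the crypt base, summed to 719618 and 489434 CPM (scaled counts, defined below) in the libraries labelled P2, to 3843 and 2232 CPM in those labelled P3 and to 21521 and 72396 CPM in P1. Goblet markers summed to 68237 and 135793 CPM in P2, 2101 and 4701 CPM in P3 and 3387 and 5454 CPM in P1. Enteroendocrine markers summed to 7378 and 17814 CPM in P2, 234 and 46.0 CPM in P3 and 381 and 306 CPM in P1. Whether the labels P2 and P3 name the gates they state was not settled by these data. If the labels were exchanged, the libraries labelled P3 would be OSCAR high and EF1a low, and every direction below would belong to that gate. For this reason all values are given for the libraries as labelled.

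The libraries labelled P3 stood apart from the rest before any gene was compared. Mitochondrial transcripts took 59.2% and 36.1% of their gene counts, against 1.78% and 1.17% in P1 and 1.04% to 5.19% over the 8 libraries outside P3. Counts of nuclear genes were 1574312 and 3003390 in P3 and 6130892 and 6228558 in P1, so low genes were measured less precisely in P3. The mix of mitochondrial transcripts differed less: mt-Co1, a subunit of cytochrome c oxidase, made up 44.1% and 41.0% of mitochondrial counts in P3 and 39.5% and 38.1% in P1, and mt-Cytb made up 23.5% and 24.3% in P3 and 23.8% and 25.6% in P1. Alignments to more than one place, which were not counted, came to 74.8 and 53.8 per 100 gene counts in P3 and 14.3 and 18.7 in P1. Their part in the results below was not tested. Mitochondrial genes were left out of scaling and tests, and levels are CPM (counts scaled by the nuclear total of a library and by TMM). In sorted bulk cells, fewer cells of a type and less RNA per cell cannot be told apart.

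**Figure D1:**
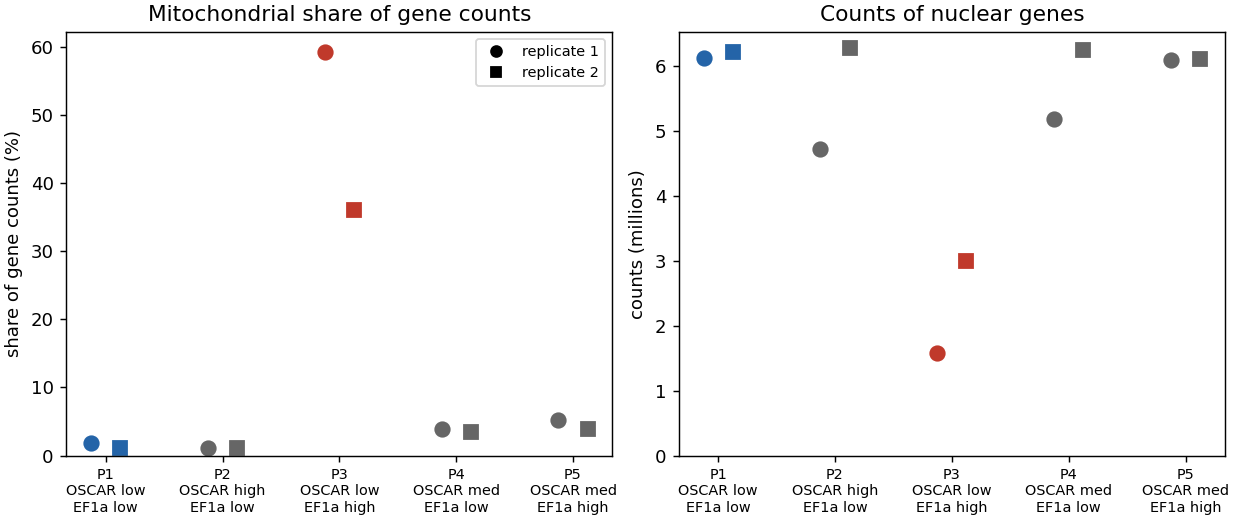
Mitochondrial share of gene counts in percent (left) and counts of nuclear genes (right) for each of the 10 libraries, with circles for replicate 1 and squares for replicate 2. Both P3 libraries lie above 30% on the left and at the bottom on the right; the other 8 lie at 5.19% or less.

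Of 13887 nuclear genes tested with edgeR's quasi-likelihood test, 1236 (8.9%) were higher and 1011 (7.28%) lower in P3 than in P1 at an adjusted p under 0.01. All 2247 called genes had both P3 libraries on one side of both P1 libraries, as had 29.5% (above) and 31.3% (below) of all genes tested. A change over 4-fold was found for 294 of the higher and 278 of the lower genes. The median log2 fold change of all genes was 0.03, and log2 fold changes below are P3 over P1 unless P5 and P4 are named. These counts drew on the spread of all 5 populations. Of the 128 genes named with values, 109 were called in this fit. Counts of called genes in the lists below are to be read beside 8.9% higher and 7.28% lower of all genes. With the 4 libraries alone no gene passed at 0.01 in edgeR, while 2277 passed at an adjusted p under 0.05 and 4412 had an unadjusted p under 0.05. Leaving out replicate 1 of P1 left 153 calls, replicate 2 of P1 left 498 and replicate 2 of P3 left 1245, and without replicate 1 of P4 there were 1289 and without replicate 2 of P4 1291. Of the 128 genes named with values, 98 no longer passed without replicate 1 of P1, 79 without replicate 2 of P1, 35 without replicate 1 of P3 and 57 without replicate 2 of P3. The calls within the gene lists below thinned in the same way: without replicate 1 of P1, 1 ER folding gene, no cholesterol gene, no mitosis gene, 1 replication gene, no brush border gene, no p53 gene and no junction gene was called, while their medians were 1.16, 1.32, 1.82, 1.75, -1.85, -1.16 and 1.06. All 2247 genes kept their direction when any of the 10 libraries was left out. With both P3 libraries on one side of both P1 libraries, leaving out 1 could hardly turn a direction. Called genes were higher in P3 in 55.0% of cases with TMM, 43.4% with DESeq2's size factors and 83.5% with library size alone, as these scalings moved the median of all genes to -0.09 and 0.46. With TMM they were higher in 41.0% of cases (850 higher and 1222 lower) without the P2 libraries, where the median of all genes was -0.09, and in 27.5% (42 and 111) without replicate 1 of P1.

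**Figure D2:**
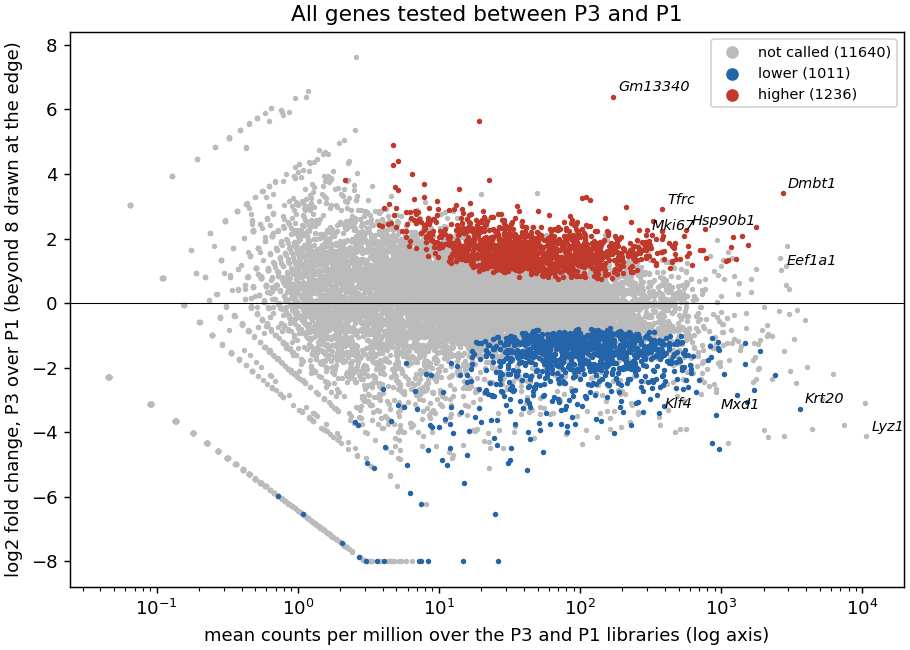
Log2 fold change of P3 over P1 against the mean CPM of the 4 libraries on a log axis, with 1 point per gene tested. Red points are the 1236 genes called higher in P3, blue points the 1011 called lower and grey points genes that did not pass; values beyond 8 are drawn at the edge.

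Among the 12 genes with the largest rises, Dmbt1 had the highest level. It encodes a secreted scavenger receptor protein of the gut surface and lies on chr7:138175590-138265140 (mm9). Its level was 6006 and 3952 CPM in P3 and 375 and 562 CPM in P1, a log2 fold change of 3.41 ± 0.40 (SE) (adjusted p = 0.0013). The 2 P3 libraries were both far above the 2 P1 libraries. Solute transporters stood beside it: Slc1a1, a glutamate transporter, rose from 15.9 and 22.8 CPM in P1 to 214 and 158 CPM in P3, and Slco2b1, an organic anion transporter, from 18.6 and 22.4 to 259 and 144 CPM. Car4, a membrane-bound carbonic anhydrase, was at 551 and 208 CPM in P3 and 52.5 and 42.5 CPM in P1. The other genes with the largest rises, beside 2 pseudogenes, were Adamts15, Hsd11b2, L1cam, Kif18b, Gm52 and Rbp7, with log2 fold changes of 3.80, 3.53, 3.18, 3.09, 3.03 and 3.01. The largest 2 values of all, 6.40 for Gm13340 and 5.65 for Gm13341, belong to nuclear pseudogenes on chromosome 2 whose exons match the mitochondrial genome at 90% identity or more. Their reads cannot be told apart from mitochondrial reads by the counting.

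Among the 12 genes with the largest falls were genes known from lymphocytes and from Paneth cells. Il2rb, the beta chain of the interleukin 2 receptor, had 0 counts in both P3 libraries and 45.4 and 13.9 CPM in P1, which is at least 23.7-fold lower against a floor of 3 counts per library. Ctsw and Ikzf3, which are expressed in lymphocytes, were at 1.73 and 0 and 0 and 1.81 CPM in P3 against 45.4 and 13.3 and 46.3 and 15.3 CPM in P1. Sprr2a3, a small proline-rich protein of stressed epithelia, was at 1.73 and 2.33 CPM in P3 and 37.0 and 87.6 CPM in P1. Defa5, a Paneth cell defensin, was at 1.15 and 2.33 CPM in P3 and 28.5 and 92.1 CPM in P1, and the defensin-related Gm14851 was at 79.4 and 80.1 CPM in P3 and 500.0 and 3184 CPM in P1. The 2 P1 libraries differed by over 3-fold in Defa5 and by over 6-fold in Gm14851, with replicate 2 higher, and defensin genes have near-identical copies, so their counts are uncertain. The remaining large falls were those of Cym, Lyz2, Cd7, Bambi-ps1, Mylip and Apol9b, with means from 20.4 CPM for Mylip to 104 CPM for Apol9b in P1 and from 0.129 CPM for Cym to 4.93 CPM for Apol9b in P3.

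**Figure D3:**
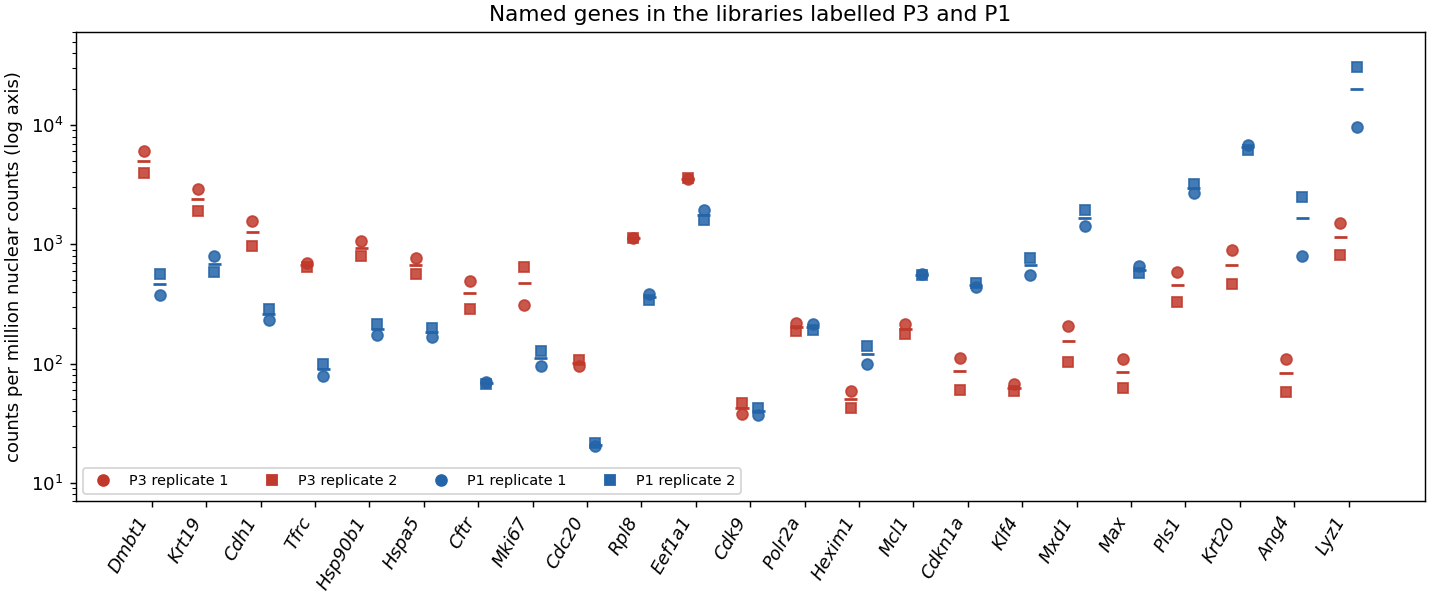
CPM on a log axis of 23 genes in the 4 libraries, red for P3 and blue for P1, with circles for replicate 1, squares for replicate 2 and bars for the mean of 2. Genes from Dmbt1 to Eef1a1 have both P3 libraries above both P1 libraries, Cdk9 and Polr2a overlap between the populations, and genes from Hexim1 to Lyz1 have both P3 libraries below.

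Many genes of protein folding in the endoplasmic reticulum (ER) rose in P3. Chaperones and disulfide isomerases there fold secreted and membrane proteins, and a shortage of folding capacity induces them through the factors Atf6, Xbp1 and Atf4. Of 24 genes listed, all tested, 13 rose and 1 fell, with a median log2 fold change of 1.42. Hsp90b1, the ER form of Hsp90, was at 1067 and 795 CPM in P3 and 175 and 213 CPM in P1 and rose by 2.26 ± 0.27 (SE) on the log2 scale (adjusted p = 0.0013). Hspa5, the ER form of Hsp70, was at 772 and 562 CPM in P3 and 165 and 199.96 CPM in P1, a log2 fold change of 1.87 ± 0.29 (SE). For the lectin chaperones, Canx was at 809.5 and 659 CPM in P3 and 176 and 232 CPM in P1 and Calr at 834 and 559 CPM in P3 and 184 and 226 CPM in P1. In each of these 4 genes the lower P3 library was over 2 times the higher P1 library. Hyou1, another chaperone, was at 276 and 162 CPM in P3 and 44.0 and 47.8 CPM in P1. The gene that fell was Ddit3, a proapoptotic factor of the same stress response, at 4.03 and 9.31 CPM in P3 and 40.8 and 38.7 CPM in P1 (log2 fold change -2.48). The most abundant member, P4hb, an isomerase, was at 2742 and 1331 CPM in P3 and 1188 and 1254 CPM in P1 and did not pass (adjusted p = 0.19). Without replicate 1 of P3, 11 members were called higher, and without replicate 2, 13.

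Promoters of these genes are shown because several share one element, the ER stress response element (ERSE), with the letters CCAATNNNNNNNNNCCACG. Stretches of up to 250 bases upstream of the start were searched on both strands in RefSeq promoters of build GRCm38.p6. ERSE was found in 7 of the 19 ER genes with a promoter in the table (36.8%) and in 35 of 27025 genes overall (0.13%; 0.15% of the 10211 tested genes in the table). Of those 7, 6 were called higher in P3: Hspa5, Hsp90b1, Calr, Canx, Pdia6 and Creld2, as were 9 of all 19. The seventh, Dnajc3, had a log2 fold change of 0.84 and did not pass (adjusted p = 0.013). Hsp90b1 held 2 copies. The stretches are given with up to 30 bases on each side, 5′ to 3′ on the strand of the gene, and with the element in capitals. A match in these letters is a description and not a bound site. The share of a list with an element counts all its members, called or not, so it does not bear on P3 against P1.
Hspa5, chr2:34771995-34772073, plus strand: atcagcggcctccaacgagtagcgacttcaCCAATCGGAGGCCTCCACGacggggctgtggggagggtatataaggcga
Hsp90b1, chr10:86705503-86705686, minus strand: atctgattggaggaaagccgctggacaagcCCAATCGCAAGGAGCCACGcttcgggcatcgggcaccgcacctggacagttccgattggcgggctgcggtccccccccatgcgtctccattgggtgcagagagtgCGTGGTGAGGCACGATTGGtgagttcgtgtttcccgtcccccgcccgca
Calr, chr8:84847045-84847123, minus strand: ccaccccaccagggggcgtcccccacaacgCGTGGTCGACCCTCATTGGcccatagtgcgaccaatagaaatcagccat
Canx, chr11:50325770-50325848, minus strand: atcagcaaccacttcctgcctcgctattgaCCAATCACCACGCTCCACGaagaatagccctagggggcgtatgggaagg
Pdia6, chr12:17266461-17266539, plus strand: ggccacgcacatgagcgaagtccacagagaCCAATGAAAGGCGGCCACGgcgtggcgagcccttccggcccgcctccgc
Creld2, chr15:88819490-88819568, plus strand: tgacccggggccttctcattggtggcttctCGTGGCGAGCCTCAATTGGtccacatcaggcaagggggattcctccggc
In Calr, Creld2 and the second copy of Hsp90b1 the capitals show the element on the other strand. Pdia6 was at 268 and 258 CPM in P3 and 63.8 and 106 CPM in P1 and Creld2, a secreted factor with a similar role, at 37.4 and 34.9 CPM in P3 and 12.8 and 9.30 CPM in P1. In both genes the P3 libraries lay above the P1 libraries.

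The cholesterol pathway, which is run by Srebf2 and supplies membranes, followed the same direction. Of 21 genes listed, 20 were tested, 11 rose and none fell (median log2 fold change 1.30), and all 20 had positive values. Srebf2 itself, one of the genes that rose, was at 246 and 177 CPM in P3 and 59.5 and 71.0 CPM in P1 (log2 fold change 1.69, adjusted p = 0.002). The sterol element TCACCCCA was found upstream of 2 of 15 members (13.3%) and of 1.54% of all genes (1.57% of those tested). Most members thus had no match to these letters in this window. Of the 2 with a match 1 was called higher, as were 7 of the 15.

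Genes of the cell surface were called in both directions, mostly higher. Of 24 genes of junctions and claudins, 9 rose and 2 fell, with a median of 1.10. Cdh1, the adhesion protein E-cadherin, was at 1579 and 963 CPM in P3 and 232 and 286 CPM in P1, a log2 fold change of 2.30 ± 0.32 (SE). Its cytoplasmic partners beta-catenin and p120-catenin moved the other way, with Ctnnb1 at 922 and 839 CPM in P3 and 2046 and 2136 CPM in P1 and Ctnnd1 at 620.2 and 487 CPM in P3 and 1137 and 1221 CPM in P1. E-cadherin and the catenins that bind it were thus called in opposite directions, although with library size alone 13 genes of the list were called higher and none lower. Of 20 ion transport genes tested, 6 rose and 1, the cytosolic carbonic anhydrase Car2, fell (log2 fold change -4.18; median 1.27, and 0.54 without replicate 1 of P3). Cftr, the chloride channel, was at 489.6 and 289 CPM in P3 and 69.6 and 66.8 CPM in P1, and the potassium channel gene Kcnq1 at 163 and 187 CPM in P3 and 33.9 and 44.5 CPM in P1.

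Genes of iron handling, Wnt signalling and ERBB signalling were called in both directions. Tfrc, the transferrin receptor, was at 698 and 644 CPM in P3 and 79.0 and 99.3 CPM in P1, a log2 fold change of 2.91 ± 0.30 (SE) (adjusted p = 0.0013). Among 11 iron genes tested it rose together with the importer gene Slc11a2, whereas the ferritin gene Ftl1, the regulator gene Ireb2 and the ferric reductase gene Cybrd1 fell (median -0.28, and 0.19 with library size alone). Cybrd1 had 0 counts in both P3 libraries and was at least 6.56-fold lower against the floor of 3 counts per library. Ftl1, which has close copies whose shared reads were not counted, was at 323 and 185 CPM in P3 and 681 and 768 CPM in P1. Of 22 Wnt targets and receptors tested, Fzd5, Lrp6, Lrp5 and Ephb2 rose, and Sp5 fell, beside 16.2% called among all genes. Fzd5, a Wnt receptor, was at 555 and 314 CPM in P3 and 89.8 and 91.4 CPM in P1, and Sp5, a transcription factor gene that Wnt signalling induces, at 8.05 and 4.14 CPM in P3 and 44.9 and 29.2 CPM in P1. The median of the Wnt list was 0.80, and -0.04 without replicate 2 of P3. Of 12 ERBB receptors, ligands and regulators tested, 3 rose and 1 fell, 5 had positive values and the median was -0.56, and 0.37 without replicate 2 of P1. The growth factor receptor genes Erbb2 and Erbb3 rose, at 295 and 221 CPM in P3 and 49.9 and 65.1 CPM in P1 and at 769.8 and 508 CPM in P3 and 278 and 240.3 CPM in P1. Lrig1, which restrains these receptors, rose too (log2 fold change 1.74), and Errfi1, another of their inhibitors, fell (log2 fold change -2.05).

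Most genes of mitosis rose in P3. They encode the cyclins, kinases and motor proteins of dividing cells and are transcribed late in the cell cycle. All 35 listed were tested, all 35 had positive values from 1.28 to 2.63, and 22 were called, with a median of 1.88. Mki67, which marks cycling cells, was at 309 and 645 CPM in P3 and 95.0 and 128 CPM in P1, a log2 fold change of 2.096 ± 0.38 (SE) (adjusted p = 0.0042). Ccnb2, a mitotic cyclin, was at 89.8 and 128 CPM in P3 and 24.5 and 19.5 CPM in P1 and Top2a, a topoisomerase, at 299 and 413 CPM in P3 and 120.1 and 100.7 CPM in P1. Cdc20, an activator of the anaphase-promoting complex, was at 95.5 and 108 CPM in P3 and 20.2 and 21.5 CPM in P1. Replicate 2 of P3 was the higher one in each, and the P3 and P1 libraries did not overlap in any of these 4 genes. Without replicate 2 of P3, 6 members were called and the median was 1.43. Without replicate 1 of P3, 30 were called, and without replicate 2 of P1 none, with a median of 1.93.

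Promoter elements known from late cell cycle genes were counted in the same upstream windows. The CHR element, TTTGAA, was found in 10 of 30 mitosis genes with a promoter in the table (33.3%) and in 18.3% of all genes (12.9% of those tested), and CCAAT, which is also part of ERSE, in 23 of 30 (76.7%) and 37.5% of all genes (40.5% of those tested). The stretches of 3 called genes are shown to place the CHR, which is in capitals.
Cdc20, chr4:118437344-118437391, minus strand: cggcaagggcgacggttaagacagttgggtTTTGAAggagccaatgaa
Mki67, chr7:135716442-135716525, minus strand: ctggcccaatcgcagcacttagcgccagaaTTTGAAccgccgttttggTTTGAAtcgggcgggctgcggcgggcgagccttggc
Ccnb2, chr9:70421686-70421751, minus strand: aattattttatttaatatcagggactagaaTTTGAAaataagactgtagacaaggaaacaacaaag
In Mki67 a CCAAT lies in the same stretch as a pair of CHR copies. Of the 10 mitosis genes with a CHR, 8 were called higher in P3. So were 15 of the 23 with CCAAT and 20 of the 30 with a promoter in the table.

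DNA replication genes, which act earlier in the cycle, gave 9 rises and no fall among 39 tested (median 1.72). Rrm1, a ribonucleotide reductase subunit, was at 77.1 and 173 CPM in P3 and 26.1 and 33.6 CPM in P1, and Mcm3 and Mcm7, subunits of the replicative helicase, at 46.0 and 100.3 CPM in P3 and 14.8 and 19.3 CPM in P1 and at 44.9 and 98.0 CPM in P3 and 17.1 and 21.3 CPM in P1. Pold2, a polymerase delta subunit, was at 61.0 and 85.8 CPM in P3 and 11.2 and 20.6 CPM in P1. The upper P3 library was again replicate 2 in these genes. The median was 2.20 without replicate 1 of P3 and 0.71 without replicate 2, with 22 and 3 members called. The letters TTTCCCGC of an E2F site were found upstream of 3 of 31 members (9.68%) and of 1.03% of all genes (1.93% of those tested). Of these 3 members 1 was called higher, as were 9 of the 31.

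Eef1a1, a mouse gene of elongation factor 1 alpha, lies on chr9:78326256-78336958 (mm9). It was at 3539.6 and 3578 CPM in P3 and 1929 and 1601 CPM in P1. Its log2 fold change was 1.01 ± 0.33 (SE), and it did not pass the threshold (adjusted p = 0.042), although both P3 libraries were above both P1 libraries. Reads of Eef1a1 may be shared with pseudogene copies, which the counting would discard. Among 10 elongation factor genes tested, 6 rose and none fell (median 1.19). Eef1b2, which recharges the factor with GTP, was at 640.4 and 769 CPM in P3 and 266 and 222 CPM in P1, and Eef1g, a subunit of the same complex, at 148 and 155 CPM in P3 and 49.4 and 49.3 CPM in P1. Eef2, which moves the ribosome along, was at 3727 and 3174 CPM in P3 and 2508 and 2606 CPM in P1 and did not pass (adjusted p = 0.33).

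Ribosomal protein genes were called in the same direction. Of 77 cytoplasmic ribosomal protein genes tested out of 79 listed, 47 rose and none fell, 75 had positive values and the median was 1.54. Without replicate 1 of P1 4 were called, without replicate 2 of P1 7, and the medians were 1.70 and 1.48. Rpl8 was at 1126 and 1132 CPM in P3 and 380.3 and 338 CPM in P1, a log2 fold change of 1.65 ± 0.26 (SE), and Rpl4 was at 1445 and 1634 CPM in P3 and 645 and 607 CPM in P1. Replicates of a population differed little in these genes beside the distance between the populations. Levels of many ribosomal protein genes are uncertain, since reads shared with their numerous pseudogenes were not counted. Of 24 genes of the nucleolus and ribosome assembly, 11 rose and none fell (median 1.39). Mybbp1a was at 157 and 224 CPM in P3 and 56.3 and 49.6 CPM in P1 and Ddx21, a helicase of ribosomal RNA processing, at 154 and 176 CPM in P3 and 55.2 and 61.3 CPM in P1. Nolc1 and Nop58 were called higher too, with log2 fold changes of 1.998 and 1.72, while Ncl, the most abundant of the list, was at 414 and 728 CPM in P3 and 253 and 224 CPM in P1 and did not pass (adjusted p = 0.012).

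Genes of the machinery that the sensor reports on were called in both directions: 4 of 25 for P-TEFb and transcription elongation, 1 of 13 for polymerase II subunits and 3 of 10 for the CDK7 complex and TFIIH, beside 16.2% of all genes. Cdk9, on chr2:32561304-32568596 (mm9), was at 38.0 and 46.3 CPM in P3 and 36.8 and 42.5 CPM in P1, and its log2 fold change of 0.10 ± 0.20 (SE) had an adjusted p of 0.74 and was -0.03 with DESeq2's size factors. Ccnt1, the cyclin partner of Cdk9, was at 35.7 and 46.8 CPM in P3 and 32.3 and 32.8 CPM in P1 (adjusted p = 0.21), and Polr2a, the largest subunit of RNA polymerase II, at 217 and 188 CPM in P3 and 216 and 191 CPM in P1 (adjusted p = 0.99). The P3 and P1 libraries overlapped in Cdk9 and Polr2a. Of 25 genes of P-TEFb and transcription elongation, none rose and 4 fell: Hexim1, Aff1, Aff4 and Ell2 (median -0.18, and 0.23 with library size alone). Hexim1, which holds P-TEFb inactive, was at 58.7 and 42.7 CPM in P3 and 98.8 and 141 CPM in P1, a log2 fold change of -1.26 ± 0.27 (SE) (adjusted p = 0.0082). Aff4, the scaffold of the super elongation complex, was at 112 and 108 CPM in P3 and 272 and 271 CPM in P1, and Ell2, another subunit of that complex, at 58.1 and 19.1 CPM in P3 and 221 and 197 CPM in P1. Both P3 libraries were below both P1 libraries in all 4 genes. Of 13 polymerase II subunit genes, Polr2h rose and no other was called. Of 10 genes of the CDK7 complex and TFIIH, Ccnh, Gtf2h4 and Gtf2h2 rose, with log2 fold changes of 1.22, 1.24 and 1.78.

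**Figure D4:**
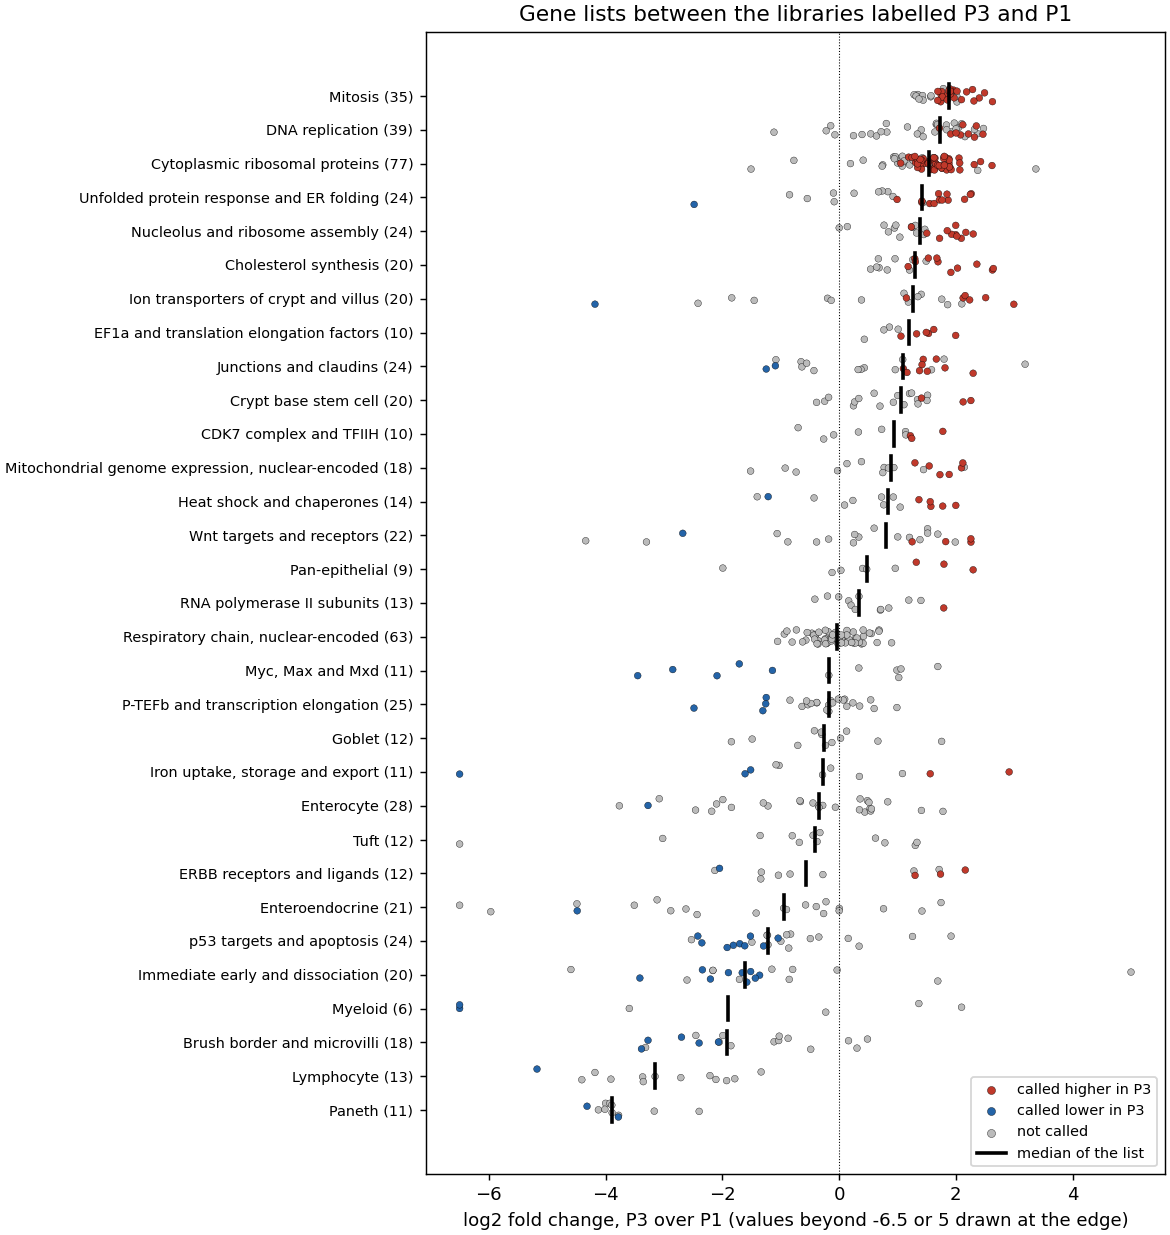
Log2 fold change of P3 over P1 for the tested members of 31 lists, with the number tested in brackets, 1 point per gene, red for called higher, blue for called lower and grey for not called; black bars are medians, and values beyond -6.5 or 5 are drawn at the edge. Of the lists drawn, Mitosis has the highest median, 1.88, and Paneth the lowest, -3.89. The erythroid list, which is not drawn, had a median of 3.13.

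Brush border genes that were called were lower in P3. The brush border is the layer of microvilli on absorptive cells, built on actin bundles. Of 18 of its genes, 5 fell and none rose, with a median of -1.92. Krt20, a keratin of differentiated cells, was at 888 and 465 CPM in P3 and 6839 and 6226 CPM in P1, a log2 fold change of -3.27 ± 0.66 (SE) (adjusted p = 0.0061). Pls1, an actin bundler, was at 587 and 327 CPM in P3 and 2712 and 3220.0 CPM in P1, and the remaining 3 were Espn, Eps8 and Anks4b, with log2 fold changes of -3.38, -2.40 and -2.07. Vil1, the most abundant bundler, was at 2216 and 1050.0 CPM in P3 and 5653 and 7328 CPM in P1 and missed the threshold (adjusted p = 0.015). The wider enterocyte list was mixed, with 1 of 28 genes called (Krt20) and a median of -0.35, which was 0.01 with library size alone. The summed level of the list was 45579 and 15474 CPM in P3 against 79706 and 61008 CPM in P1. The median was 0.16 without replicate 2 of P3 and 0.13 without replicate 1 of P1. Hnf4a, a factor that drives enterocyte genes, was at 1052 and 1081 CPM in P3 and 1239.7 and 1536 CPM in P1 (adjusted p = 0.35), with a log2 fold change of -0.38 that was 0.05 with library size alone.

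Several genes of the Max network fell. Myc and the Mxd proteins compete for Max and drive or repress growth genes. Of 11 genes, Mxd1, Max, Mlx, Mxi1 and Mxd4 fell and none rose (median -0.18, and 0.27 with library size alone). Mxd1 was at 205 and 102 CPM in P3 and 1417 and 1929 CPM in P1, a log2 fold change of -3.45 ± 0.68 (SE), and Max at 109 and 61.8 CPM in P3 and 652 and 572 CPM in P1. Mxi1 was at 50.1 and 46.3 CPM in P3 and 202 and 208 CPM in P1. Each was lower in P3 by more than the spread of either pair. Myc itself was at 16.7 and 67.7 CPM in P3 and 10.8 and 16.2 CPM in P1, with a log2 fold change of 1.69 that did not pass (adjusted p = 0.04).

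Immediate early genes, which respond within minutes to growth factors or to dissociation, included many called lower. Of 20 tested, 9 fell and none rose, with a median of -1.62. Klf4, a factor of arrested and differentiated epithelium, was at 66.7 and 58.4 CPM in P3 and 556 and 774 CPM in P1, a log2 fold change of -3.41 ± 0.35 (SE), and Klf6 at 82.3 and 62.1 CPM in P3 and 342 and 386 CPM in P1. Fosl2 was at 139.8 and 95.4 CPM in P3 and 296 and 374 CPM in P1 and Zfp36, which destabilises messages, at 73.6 and 98.5 CPM in P3 and 189 and 279 CPM in P1. Genes of p53 and apoptosis gave 9 falls and no rise among 24 tested (median -1.22). Cdkn1a, the inhibitor p21 that stops the cell cycle, was at 112 and 59.7 CPM in P3 and 441 and 471 CPM in P1 (log2 fold change -2.42). Mcl1, which blocks apoptosis, was at 213 and 177 CPM in P3 and 558 and 556 CPM in P1, and Casp8 and Apaf1, which promote it, were at 84.6 and 104 CPM in P3 and 285 and 332 CPM in P1 and at 49.5 and 64.9 CPM in P3 and 169 and 184 CPM in P1. The genes that fell in this list included both promoters and blockers of apoptosis.

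Chaperones of the cytosol and mitochondria gave 5 rises and 1 fall, of Dnaja1 (log2 fold change -1.21), among 14 (median 0.85). Hsp90ab1 was at 1580.5 and 2103 CPM in P3 and 741 and 687 CPM in P1 and Hspd1, a chaperonin of mitochondria, at 293 and 315 CPM in P3 and 72.7 and 79.5 CPM in P1. Of 18 nuclear genes that express the mitochondrial genome, 6 rose and none fell (median 0.89). Of 63 nuclear genes of the respiratory chain, none was called by edgeR, with a median of -0.03 and values from -1.05 to 0.90; 11 had an unadjusted p under 0.05, and DESeq2 called 3. In P3, where mitochondrial transcripts took a large share, the nuclear subunits of the same complexes thus had values on both sides of 0.

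Markers were used to check the sorted cell types. Of 9 markers of epithelium at large, 3 rose and none fell (median 0.47), and their summed level was 12348 and 8353 CPM in P3 and 10061 and 12321 CPM in P1, which overlap. Epcam, the antigen of the sort, was at 1749 and 1450.4 CPM in P3 and 577 and 702 CPM in P1 and was called higher in P3, as were Krt19 at 2891 and 1900.3 CPM in P3 and 792 and 587 CPM in P1 and Cdh1, so all 4 libraries carried epithelial RNA. Of 20 stem cell genes of the crypt base, 3 were called, all higher: Smoc2, Ephb2 and Aqp4 (median 1.06), beside 16.2% of all genes. The median was 0.02 without replicate 2 of P3 and 1.32 without replicate 1. Olfm4 was at 343 and 2615 CPM in P3 and 452 and 709 CPM in P1, and Lgr5, the defining stem cell marker, at 4.603 and 10.9 CPM in P3 and 11.2 and 10.6 CPM in P1 (adjusted p = 0.42), while in the other 6 libraries it was at 87.0 to 140.1 CPM. Its log2 fold change of -0.39 was 0.07 with library size alone. Tert, the telomerase gene, was at 8.05 and 10.3 CPM in P3 and 2.70 and 2.92 CPM in P1 and did not pass (adjusted p = 0.015).

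Called markers of secretory, lymphocyte and myeloid cells were lower in P3. All 11 Paneth genes tested had negative values with a median of -3.89, and Ang4 and Defa17 were called. The median was -2.51 without replicate 2 of P1, and no member was called when any 1 of the 4 libraries was left out. Lyz1, the lysozyme of Paneth granules, was at 1496 and 815 CPM in P3 and 9588 and 30673 CPM in P1 and missed the threshold (adjusted p = 0.023). Replicates 1 and 2 of P1 differed over 3-fold in it. Goblet and tuft markers had no gene called by edgeR among 12 tested each (medians -0.26 and -0.41). Without replicate 1 of P3 these medians were 0.12 and -2.48, and without replicate 2 of P3 -0.89 and 0.53; tuft markers summed to 332 and 41.4 CPM in P3 and 299.7 and 135 CPM in P1. In both lists 2 genes had an unadjusted p under 0.05, and DESeq2 called 1 goblet and 2 tuft genes lower. Of 21 enteroendocrine genes, only Sst was called, at 3.45 and 2.33 CPM in P3 and 67.1 and 56.9 CPM in P1. Lymphocyte markers summed to 253 and 5.95 CPM in P3 and 1425 and 414 CPM in P1, with Cd7 called lower among 13 tested and a median of -3.15. Cd3e and Gzma, which define T cells and their cytotoxic granules, had no count in replicate 2 of P3 and were at 13.2 and 59.8 CPM in replicate 1. Without replicate 1 of P3, 7 were called and the median was -8.69. In the myeloid list, where 6 of 10 genes were tested, Lyz2 and Fcer1g fell. Fcer1g had 0 counts in both P3 libraries and was at least 11.9-fold lower. Of the 6 myeloid genes, 2 had positive values and 3 had both P3 libraries below both P1 libraries (median -1.91). A fall of the myeloid list as a whole was thus not shown. Of 14 stromal markers 3 passed the filter on low counts, 2 with an unadjusted p under 0.05 and none called by edgeR. Erythroid genes, mainly hemoglobins, summed to 211 and 121 CPM in P3 and 1.26 and 35.8 CPM in P1. None of 5 was called by edgeR, and 3 had an unadjusted p under 0.05. All 5 erythroid genes had positive values, with a median of 3.13. Their part in the results above was not tested.

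The 20 lists left out of the plot of log2 fold changes by list, stromal and erythroid among them, held at most 5 called genes each. Some lists described above, such as the enterocyte and Paneth lists, held as few. Of the 349 tested members of these 20 lists, 23 were called higher and 27 lower, with a gene counted in each of its lists. They ranged from 3 higher and 1 lower of 11 landmark genes of the villus bottom to none of 20 genes of DNA methylation and Polycomb. In 4 equal classes of genes from the shortest to the longest by exon length, the medians were 0.08, 0.00, 0.06 and 0.01. In the shortest class 8.41% were called higher and 4.61% lower, and in the others 8.24% to 9.84% higher and 8.005% to 8.33% lower. Reads were counted without regard to strand, so genes that share exon sequence with a gene on the other strand are uncertain. Among the genes named here these were Ccnh, Ccnt1, Cd7, Cdc20, Cftr, Ctnnb1, Ddit3, Dnaja1, Erbb2, Hsp90b1, Hspd1, Lrig1, Mcm7, Mlx, Mxi1, Mybbp1a, Pdia6, Polr2h, Slc11a2, Slc1a1, Slco2b1 and Vil1. Hspa5, Hyou1, Pdia6, Creld2, Dnajc3, Ddit3, Cdc20, Sp5, Espn, Mxd4, Myc, Car2, Cybrd1 and Dnaja1 were named after their values were seen, as was Cd3e.

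At medium OSCAR, the contrast labelled EF1a high against EF1a low gave no gene called by edgeR between P5 and P4. It gave 335 genes with an unadjusted p under 0.05, and DESeq2 called 28 there. These libraries are not shared with P3 and P1. If the labels P2 and P3 were exchanged, P3 and P1 would both be EF1a low. P3 minus P1 would then be a contrast of OSCAR signal and not of EF1a signal. The difference between both contrasts was tested gene by gene: P3 minus P1 exceeded P5 minus P4 in 208 genes (1.5%) and fell short of it in 167 (1.2%). This split was 87 and 211 with DESeq2's size factors, 814 and 111 with library size alone, 729 and 1236 with DESeq2, 45 and 67 with mitochondrial genes kept in the scaling, and 61 and 159 without the P2 libraries. Leaving out replicate 1 of P2 left 124 such genes, and leaving out any of the other 9 libraries left none. The limma-voom fit gave 673. Dmbt1 differed between both contrasts by 3.55 on the log2 scale. Ang4 differed by -7.32, being at 391 and 70.4 CPM in P5 and 27.4 and 30.03 CPM in P4.

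The 35 mitosis genes were positive in P5 over P4 as well, from 1.01 to 2.18 with a median of 1.49, and no member passed the test of the difference. DNA replication genes were positive in 15 of 39 there, with a median of -0.04 and 1 member passing the test of the difference, and ER folding genes in 5 of 24, with a median of -0.14 and 4 members passing. Ribosomal protein genes had a median of -0.20 at medium OSCAR, and 19 of 77 passed the test of the difference, beside 2.7% of all genes. Paneth genes had positive values in P5 over P4 in all 11 members, from 1.68 to 3.61 on the log2 scale. These were opposite in sign to their values between P3 and P1, and Ang4 and Defa17 passed the test of the difference. The Paneth markers summed to 13384 and 2744 CPM in P5 and 650 and 1095 CPM in P4, so the replicates of P5 lay far apart.

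**Figure D5:**
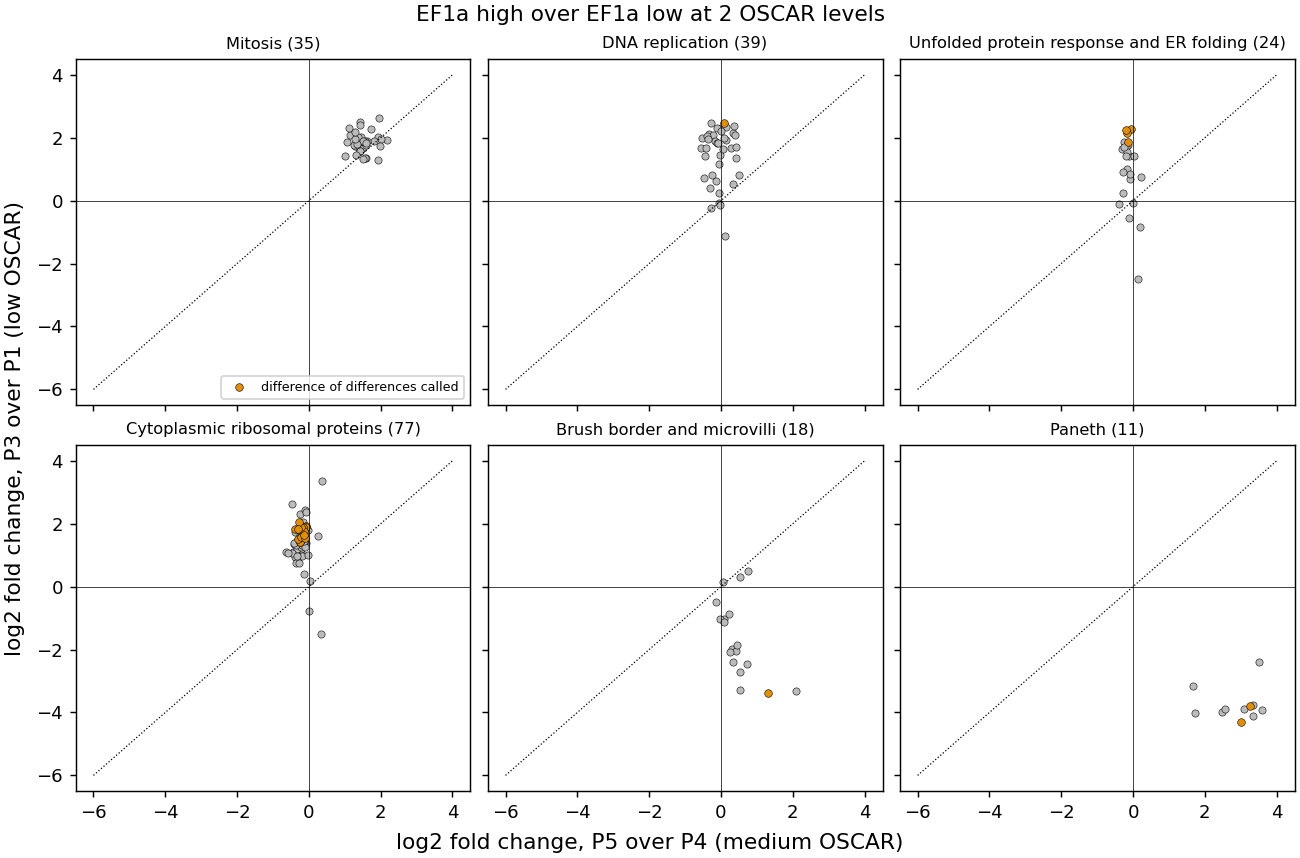
Log2 fold change of P3 over P1 against that of P5 over P4 for the tested members of 6 lists, with 1 point per gene and the line of equal values dotted; orange points passed the test of the difference. Mitosis genes lie in the upper right, most ER folding and ribosomal genes above 0 on the vertical axis near 0 on the horizontal one, and Paneth genes in the lower right.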

How the data were processed

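RNA-seq was done on 10 libraries from 5 sorted populations with 2 replicates each. The authors deposited counts of reads per gene. The submitters' processing notes name FastQC 0.11.5, TopHat2 2.1.0 with Bowtie, the mm9 build and HTSeq 0.11.2. Counting ignored strand and left out reads that aligned to more than one place, which lowers genes with close copies.

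Rows that name no gene, 37 mitochondrial and 204 rRNA names were left out, and 34765 nuclear genes remained. Gene counts per library ranged from 3857612 to 6485811 before this step. Library sizes were scaled by TMM, low genes were removed with filterByExpr, and 5 population means were fitted over all 10 libraries with the quasi-likelihood test of edgeR 4.0.16 in R 4.3.3. Benjamini-Hochberg adjusted p under 0.01 was the threshold, SE is the standard error of the log2 fold change, and a fold against libraries with no count used a floor of 3 counts per library. The test of the difference compared P3 minus P1 with P5 minus P4. An exact permutation test of 2 against 2 libraries cannot go below a two-sided p of 0.333.

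Groups were taken from sample titles. Named genes were the 12 largest called changes in each direction with non-overlapping libraries and at least 20 CPM, up to 4 of the most abundant called genes of each list with its most abundant gene, 11 genes of the study and the 5 largest differences between contrasts in each direction. The populations, lists and genes were chosen with earlier results of these data known. Gene positions are those of mm9. Promoters were taken from RefSeq (GRCm38.p6) by gene symbol. Nuclear genes that match the mitochondrial genome were found with blastn 2.17.0. Alternatives covered scaling, filters, DESeq2 1.42.0, limma 3.58.1, thresholds, a replicate block and leaving out libraries. Leaving out both P2 libraries, and the genes matching the mitochondrial genome, was chosen after seeing the data. The fit was tested on simulated data, where many genes given a change did not pass, so a gene that did not pass may still differ. Some genes that meet the rule for named genes are not reported here.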

Additional observations from a re-analysis of the deposited data

Results flagged for a closer look

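The difference between the contrasts labelled as EF1a high against low, at low and at medium OSCAR, passed the test in 375 genes. The values below are log2 differences, P3 over P1 minus P5 over P4. The 5 largest positive ones were 6.04 for Gm13340, 5.32 for Plxna3, 3.67 for Ung, 3.61 for Sema3c and 3.55 for Dmbt1. Plxna3, a semaphorin receptor gene, was at 12.1 and 6.21 CPM in P3 and 0.361 and 0.182 CPM in P1, and between 5.96 and 9.28 CPM in P4 and P5. Ung encodes a DNA repair glycosylase and Sema3c a secreted semaphorin, and both were at under 5 CPM in P1 and above 10 CPM in the P4 and P5 libraries.

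The 5 largest negative ones were -7.91 for Gm14851, -7.81 for AY761184, -7.72 for Gm15284, -7.49 for Defa5 and -7.32 for Ang4, all defensin-related or Paneth cell genes. AY761184 was at 281 and 179 CPM in P3 and 1524 and 6551 CPM in P1, and at 1061 and 246 CPM in P5 and 34.0 and 67.9 CPM in P4. In the libraries labelled P2, AY761184 was at 44353 and 41148 CPM. Replicates differed by over 3-fold in P1 and in P5.

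Mitochondrial transcripts, which were outside the test, took 59.2% of gene counts in replicate 1 and 36.1% in replicate 2 of P3, above every other library.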

How the results depend on the processing

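The other settings reuse the same counts, and no called gene overlapped between P3 and P1, so directions could hardly turn. All 2247 genes called between P3 and P1 that a setting gave a value for kept their direction in all 25 other settings. Their number was 3992 with no filter on low counts, 3533 with DESeq2, 760 against a 1.5-fold threshold, 4606 at an adjusted p under 0.05, 0 with only the populations compared, and 153 to 2098 with 1 library left out. Genes that differed between the contrasts numbered 925 with library size alone, 2277 with no filter, 112 with mitochondrial genes kept, 1965 with DESeq2, 673 with limma-voom, 220 with only the populations compared, 0 against 1.5-fold, 220 without the libraries labelled P2, 2451 at an adjusted p under 0.05, and 0 to 124 with 1 library left out. Between P5 and P4, 190 were called with no filter, 28 with DESeq2 and 0 with any 1 library left out. With the replicate number as a block, 2705 genes were called between P3 and P1, 808 differed between the contrasts and 1 was called between P5 and P4. Nothing in the labels ties a number to an animal; deviations of P1 and P3 libraries with the same number correlated across genes at 0.254, and the 10 pairs of populations ranged from -0.062 to 0.546.

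With library size alone the medians of the lists turned to 0.012 (enterocyte), 0.23 (P-TEFb), 0.27 (Myc, Max and Mxd) and 0.19 (iron), Polr2a to 0.41, Lgr5 to 0.068 and Hnf4a to 0.047. Cdk9 was -0.034 with DESeq2's size factors, -0.027 with DESeq2 and -0.052 without the libraries labelled P2. Polr2a was 0.081 with the upper quartile, 0.014 with the stricter filter and 0.012 with only the populations compared. The ERBB median was 0.52 with the stricter filter and 0.52 with only the populations compared. With 1 library left out, it ranged from -0.66 to 0.37, the enterocyte median ranged from -1.28 to 0.16, the Myc, Max and Mxd median from -0.41 to 0.074, the Wnt median from -0.040 to 0.97, the iron median from -1.37 to 0.074, Cdk9 from -0.068 to 0.21, Polr2a from -0.22 to 0.087 and Olfm4 from -0.77 to 2.07. The cause was not tested. Genes at a few CPM rest on few counts in replicate 1 of P3, the shallowest library, and their values are the least precise.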

Other observations

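Families named by the start of the gene symbol were counted after their values were seen, as a description with no test, beside 8.9% of all genes called higher and 7.28% called lower. Nucleoporin genes named Nup, which build the nuclear pore, were called higher in 10 of 20 tested and lower in none (median log2 fold change 1.38). Nup153 was at 101.3 and 94.1 CPM in P3 and 39.5 and 34.3 CPM in P1. Of 216 solute carrier genes outside the Slc25 family, 29 were higher and 1 lower (median 0.57). The Slc25 family, of mitochondrial carriers, went the other way, with 1 higher and 4 lower of 37 (median -0.45). Slc7a1, which takes up basic amino acids, was at 150.2 and 159.5 CPM in P3 and 24.0 and 39.2 CPM in P1, and Slc16a1, a lactate transporter, at 143 and 182 CPM in P3 and 32.5 and 45.4 CPM in P1. Of 78 mitochondrial ribosomal protein genes, 13 were higher and none lower (median 0.64).

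Families of vesicle traffic had genes called lower and none called higher. Of 48 Rab GTPase genes, which direct vesicle traffic, none was higher and 18 were lower (median -1.04). Rab1 was at 304 and 271 CPM in P3 and 958 and 798 CPM in P1, and Rab11a at 85.2 and 83.8 CPM in P3 and 259 and 228 CPM in P1. Of 27 Tbc1d genes, whose proteins switch Rab proteins off, none was higher and 7 were lower (median -0.85), and of 30 Vps genes of vesicle sorting 6 were lower (median -0.56). Genes named Zfp gave 6 higher and 7 lower among 311 (median 0.10). Trim genes gave 2 higher and 11 lower among 42 (median -0.39), and Zdhhc genes 5 higher and 0 lower among 20 (median 0.94). At medium OSCAR the medians of the nucleoporin and Rab families were 0.14 and -0.01.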
